A study of Mus musculus with 6 samples.

Results

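Angiomotins are scaffold proteins of cell junctions and the actin cytoskeleton, and they act in the Hippo pathway beside the kinases and the coactivators that this pathway controls. In common myeloid progenitors (CMP) sorted by their content of reactive oxygen species (ROS), the Amot probe set that stood highest above background gave 2.10 times as much signal in the high-ROS as in the low-ROS fraction. The log2 fold change of that probe set was 1.01, and the other Amot probe sets had 0.21 and -0.16. On the brightest probe sets of the 7 other measured genes the log2 fold changes lay between -0.32 and 0.31. Dimmer probe sets of Lats2 ranged from -0.94 to 0.35. The 9 genes followed here are the angiomotins Amot, Amotl1 and Amotl2, the coactivators Yap1 and Wwtr1 (the protein TAZ), and the kinases Lats1, Lats2, Stk3 (MST2) and Stk4 (MST1). They were chosen by name around Amot, which was picked because it passed the test of high-ROS against low-ROS CMP. Members' values from that contrast are therefore given as a description. Every probe set whose platform annotation gives only the symbol of a member was read. These were 23 of 34945 probe sets with 1 gene symbol, and they covered 8 of the 9 genes and 8 of 18193 genes in all. Stk3 has no such probe set and is not analysed here.

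CMP are progenitors in bone marrow from which granulocytes and monocytes, and also megakaryocytes and red cells, arise. The cells came from femurs, tibiae and ilia of C57BL6 mice and were sorted by flow cytometry after staining with H2-DCFDA, which becomes fluorescent on oxidation. The low-ROS and high-ROS groups were each 15 to 20% of all CMP, with 3 arrays a group and no other treatment stated, and the series asks about ROS in the step from CMP to the shared progenitors of megakaryocytes and red cells. No age of the mice is given. It is also not stated if arrays of 1 group stand for different mice or sorting runs, so the errors cover the spread between these arrays, which may be technical only.

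In the Hippo pathway the kinases Stk3 and Stk4 activate Lats1 and Lats2. The Lats kinases phosphorylate the coactivators Yap1 and Wwtr1, which then stay in the cytoplasm and are degraded, and which otherwise enter the nucleus and act through TEAD transcription factors. Angiomotins bind Yap1 and Wwtr1 and hold them at junctions and actin filaments, and they also bind and stimulate Lats kinases. The pathway is best known from epithelia and endothelium, where angiomotins were first studied in cell migration. In the blood lineage Stk4 is known for its part in lymphocytes, where its loss causes immune deficiency.

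The deposited values are linear signals without a detection call, with array medians of 40.4 to 42.5, and a signal below the median of its array is called near background here. Trimmed means (2% of each tail) were 181 to 198, the lowest on high-ROS replicate 3. That array also had the highest ratio of 3' to 5' Gapdh signal, a measure of RNA integrity and labelling. The ratio was 3.19, 2.84 and 2.54 on low-ROS arrays 1 to 3 and 3.57, 2.997 and 4.53 on high-ROS arrays 1 to 3. The groups overlapped, but the highest and the next highest ratio were both on high-ROS arrays. The part of RNA quality in the differences between the fractions was not tested. Of the surface genes of progenitor gates, Kit, Cd34 and Fcgr3 were above the median on every array. Fcgr3 had 1719 ± 43.7 (SD, n = 3) on the low-ROS arrays and 1747 ± 45.7 on the high-ROS arrays. Kit gave 642 ± 96.9 and 545 ± 19.2, with a log2 fold change of -0.22 (SE 0.139). Its groups did not overlap, by a gap from 559 to 561, beside 5.32% of all genes that were lower without overlap. Cd34 gave 417 ± 71.3 and 584 ± 231, with overlapping groups and a log2 fold change of 0.40 (SE 0.259). Il7r, a lymphoid receptor that CMP gates commonly exclude, gave 735 ± 88.9 and 720 ± 48.0.

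The regions before the starts of Amot and of Amotl2 are shown because these members differed most and least between the fractions on their brightest probe sets. Each run is the 250 bases before the start of the gene, 5′ to 3′ on the gene's strand, from RefSeq (GRCm38.p6), at chrX:145487640-145487889 on the minus strand for Amot and chr9:102717554-102717803 on the plus strand for Amotl2. Capitals mark the core of the element that TEAD factors bind, searched as GGAATG and its reverse complement CATTCC on both strands.
Amot: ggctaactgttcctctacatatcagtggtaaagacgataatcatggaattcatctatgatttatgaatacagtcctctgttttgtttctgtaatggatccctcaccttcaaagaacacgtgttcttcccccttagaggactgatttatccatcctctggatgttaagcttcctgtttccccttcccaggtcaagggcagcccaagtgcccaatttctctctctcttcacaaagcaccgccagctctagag
Amotl2: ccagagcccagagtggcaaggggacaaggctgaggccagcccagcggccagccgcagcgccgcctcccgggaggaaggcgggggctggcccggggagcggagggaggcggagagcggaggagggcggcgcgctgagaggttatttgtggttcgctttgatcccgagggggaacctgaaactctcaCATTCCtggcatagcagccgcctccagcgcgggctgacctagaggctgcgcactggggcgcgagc
Amotl2 held 1 match, which starts 65 bases before the gene's start, and the Amot window held 0. Yap1 and Wwtr1 also held 1 match in each window, and Amotl1, Lats1, Lats2 and Stk4 held 0. Of 32851 such windows over all genes, 12.6% held a match. A match describes letters in this window and is no measure of binding. Bases G and C made up 44.8% of the Amot window and 70.4% of the Amotl2 window.

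Amot encodes the founding angiomotin, which binds Yap1 and the junction proteins of the Patj and Pals1 complex. Probe set 1454890_at gave signals of 198, 190 and 195 on low-ROS arrays 1 to 3 and of 395, 423 and 408 on high-ROS arrays 1 to 3. The groups lay far apart relative to the spread within them, and all 3 high-ROS values were above all low-ROS values. The means were 194 ± 4.13 (SD, n = 3) and 409 ± 13.9, with a log2 fold change of 1.01 (SE 0.141, 95% interval 0.70 to 1.32). On high-ROS replicate 3, where the Gapdh ratio was highest, the value lay between those of the other 2 high-ROS arrays. That ratio was also higher on average in the high-ROS group, and the part of RNA quality in the Amot difference was not tested. Probe set 1454890_at brought the family in. With 1 probe set per gene it passed at an adjusted p of 0.0411 (limma, Benjamini-Hochberg adjustment over all genes), and 0.0605% of all genes passed. The call rested on all 6 arrays, since without any 1 of them the adjusted p was 0.0807 to 0.331, with a log2 fold change of 0.99 to 1.04. It was also lost without the mean-variance trend (0.0627), with a pseudocount of 64 (0.0528), and with the mean of the 3 Amot probe sets (log2 fold change 0.36, adjusted p = 0.696). The SE and interval above are from the fit with every probe set as its own row. In that fit 1454890_at had an adjusted p of 0.0677 (limma) and did not pass.

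The other Amot probe sets did not repeat this difference. Probe set 1427584_at gave 28.5, 70.4 and 70.6 on the low-ROS arrays and 94.97, 96.5 and 25.4 on the high-ROS arrays. The groups overlapped, because replicate 3 of the high-ROS arrays lay below every low-ROS value. Replicate 1 of the low-ROS arrays was also far below the others of its group. The log2 fold change was 0.21 (95% interval -0.68 to 1.10). Without that high-ROS array, the one with the highest Gapdh ratio, it was 0.69, and without that low-ROS array it was -0.11. Leaving out the first or second high-ROS array gave -0.02 and -0.03. The part of RNA quality in these values was not tested. Probe set 1425907_s_at was near background on all 6 arrays, with 41.0, 28.2 and 29.8 on the low-ROS arrays and 25.1, 28.0 and 30.1 on the high-ROS arrays. Its log2 fold change was -0.16 (95% interval -0.61 to 0.29), which lies wholly below the interval of 1454890_at. Which part of the Amot transcript each probe set reads was not examined here.

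**Figure D1:**
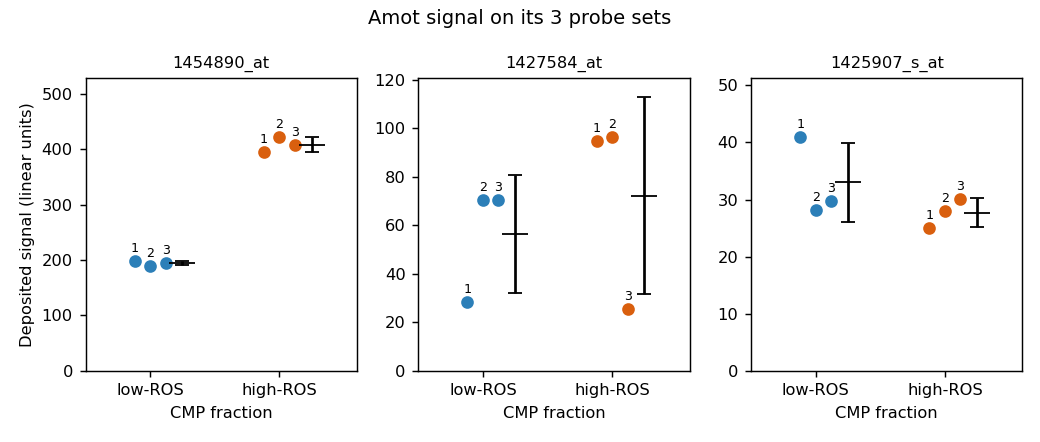
Deposited signal of the 3 Amot probe sets (linear units, y axis from 0, a separate scale in each panel) on the low-ROS (blue) and high-ROS (orange) arrays, numbered by replicate, with bars for the mean ± SD of 3 arrays. Only 1454890_at separates the fractions, with 190 to 198 against 395 to 423, and 1427584_at and 1425907_s_at overlap.

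Amotl1 and Amotl2 encode the other two angiomotins, which share the Yap1-binding and junction functions of Amot. The brightest Amotl1 probe set, 1455247_at, gave 16.7, 52.8 and 19.9 on the low-ROS arrays and 51.3, 29.4 and 34.2 on the high-ROS arrays, below the array median on 4 of 6 arrays. The groups overlapped, with a log2 fold change of 0.31 (95% interval -0.36 to 0.97), which ranged from 0.11 without low-ROS replicate 1 to 0.64 without low-ROS replicate 2. Probe set 1428785_at was near background on all arrays, with a log2 fold change of -0.11 (SE 0.220). Probe set 1431121_at did not overlap between the groups, but at the bottom of the scale: 1.06, 2.50 and 1.0 on the low-ROS arrays and 4.96, 7.90 and 7.56 on the high-ROS arrays. Its log2 fold change was 0.38 with the pseudocount of 16 and 1.66 with a pseudocount of 1, so its size is set by the pseudocount.

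Amotl2, which is itself a known target of Yap1, had 1 probe set, 1452387_a_at. It gave 59.0, 55.6 and 48.4 on the low-ROS arrays and 52.9, 47.2 and 65.5 on the high-ROS arrays. The groups overlapped fully and lay just above the array medians. The log2 fold change was 0.01 (95% interval -0.46 to 0.48), an interval that lies below that of the brightest Amot probe set. The sign turned without replicate 3 of the low-ROS group (-0.05) or of the high-ROS group (-0.09).

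The coactivators Yap1 and Wwtr1 gave signals near background on all 5 of their probe sets and all 6 arrays. For Yap1, 1416487_a_at gave 24.97, 28.8 and 17.7 on the low-ROS arrays and 11.7, 14.7 and 21.3 on the high-ROS arrays, with a log2 fold change of -0.32 (SE 0.199). The other Yap1 probe set, 1448363_at, gave 21.5, 14.02 and 9.91 on the low-ROS arrays and 23.0, 16.1 and 28.9 on the high-ROS arrays, with a log2 fold change of 0.32 (SE 0.209). The 2 probe sets thus pointed in opposite directions, each with overlapping groups.

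For Wwtr1 all 3 probe sets had lower means on the high-ROS arrays. Probe set 1417817_a_at gave 10.2, 12.9 and 11.6 on the low-ROS arrays and 6.39, 5.76 and 8.35 on the high-ROS arrays, with no overlap and a log2 fold change of -0.27 (SE 0.135). Probe set 1437155_a_at, at 5.77, 6.41 and 12.9 against 3.06, 4.71 and 2.46, also had no overlap, with a log2 fold change of -0.32 (SE 0.140). Probe set 1417818_at overlapped, with a log2 fold change of -0.16 (SE 0.153). These differences are between signals far below the array median. At such levels a signal is not evidence that the transcript was present in either fraction.

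**Figure D2:**
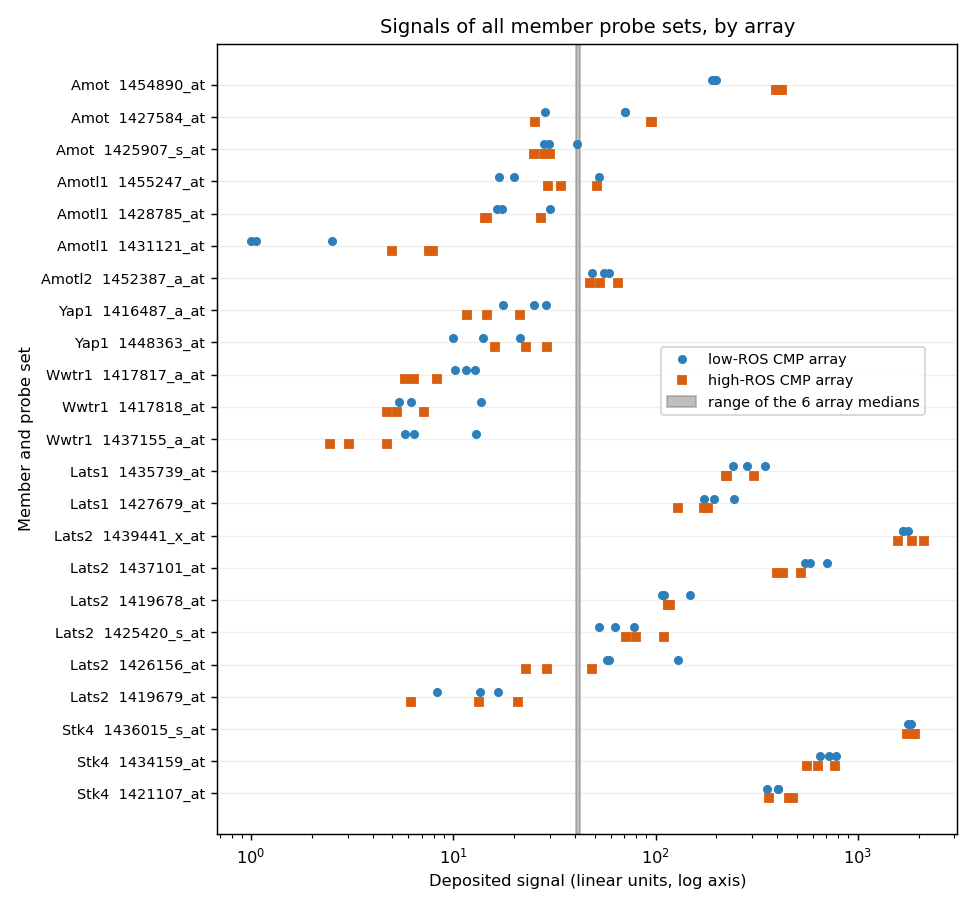
Deposited signal (x axis, linear units on a log axis) of each of the 23 probe sets of the 8 measured genes on the 3 low-ROS (blue circles) and 3 high-ROS (orange squares) arrays, with the range of the 6 array medians as a grey band. All 5 Yap1 and Wwtr1 probe sets lie left of the band, and 9 of 11 kinase probe sets lie right of it on every array. The groups of the brightest Amot probe set are widely apart. Those of Lats2 1437101_at, at higher signal, are apart by a narrow gap.

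Of the kinase probe sets, 9 of 11 were above the array median on all 6 arrays. Stk4, which activates the Lats kinases, gave 1823, 1833 and 1769 on the low-ROS arrays and 1906, 1916 and 1748 on the high-ROS arrays on 1436015_s_at. The groups overlapped within a narrow range, with means of 1809 ± 34.3 (SD, n = 3) and 1857 ± 94.4 and a log2 fold change of 0.04 (95% interval -0.17 to 0.24). Probe set 1434159_at gave 717 ± 65.4 and 654 ± 106, with a log2 fold change of -0.14 (SE 0.145). Probe set 1421107_at gave 388 ± 28.3 and 434 ± 62.4, with a log2 fold change of 0.15 (SE 0.152). The 3 probe sets differed in sign, and the intervals of the last 2 reached from -0.46 to 0.18 and from -0.19 to 0.48.

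Lats1, which phosphorylates Yap1 and Wwtr1, was lower on average on the high-ROS arrays on both of its probe sets, with overlapping groups. Probe set 1435739_at gave 242, 283 and 349 on the low-ROS arrays and 227, 223 and 309 on the high-ROS arrays. Its log2 fold change was -0.19 (SE 0.189, 95% interval -0.61 to 0.22), and with 1 array left out it went from -0.06, when low-ROS replicate 3 was the one left out, to -0.34, when high-ROS replicate 3 was. Probe set 1427679_at gave 195, 245 and 174 on the low-ROS arrays and 173, 183 and 129 on the high-ROS arrays, with a log2 fold change of -0.31 (SE 0.198, 95% interval -0.75 to 0.12). Replicate 3 was the highest of each group on the first probe set and the lowest of each group on the second, so the probe sets of Lats1 did not follow each other across arrays.

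Lats2, the other Lats kinase, had 6 probe sets that disagreed, 3 with a higher and 3 with a lower mean on the high-ROS arrays. The brightest, 1439441_x_at, gave 1673, 1680 and 1779 on the low-ROS arrays and 1847, 1582 and 2123 on the high-ROS arrays, with overlapping groups and a log2 fold change of 0.10 (95% interval -0.16 to 0.36). The suffix x marks probe sets of this platform with probes that can match other transcripts, so this signal may not come from Lats2 alone. Probe set 1437101_at gave 704, 546 and 579 on the low-ROS arrays and 524, 428 and 397 on the high-ROS arrays. Its groups did not overlap, by a gap from 524 to 546, and its log2 fold change was -0.43 (SE 0.154, 95% interval -0.77 to -0.09). Probe set 1426156_at gave 130, 59.0 and 57.6 on the low-ROS arrays and 29.0, 48.5 and 22.9 on the high-ROS arrays, again with no overlap, and a log2 fold change of -0.94 (SE 0.311). Its low-ROS mean rests on replicate 1, without which the log2 fold change was -0.62. Of the other 3, 1425420_s_at had a log2 fold change of 0.35 (SE 0.232), 1419678_at -0.05 (SE 0.193) and 1419679_at, near background, 0.01 (SE 0.209). With 1 probe set per gene, Lats2 was represented by 1439441_x_at, at 0.10, whereas the mean of its 6 probe sets had -0.16.

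**Figure D3:**
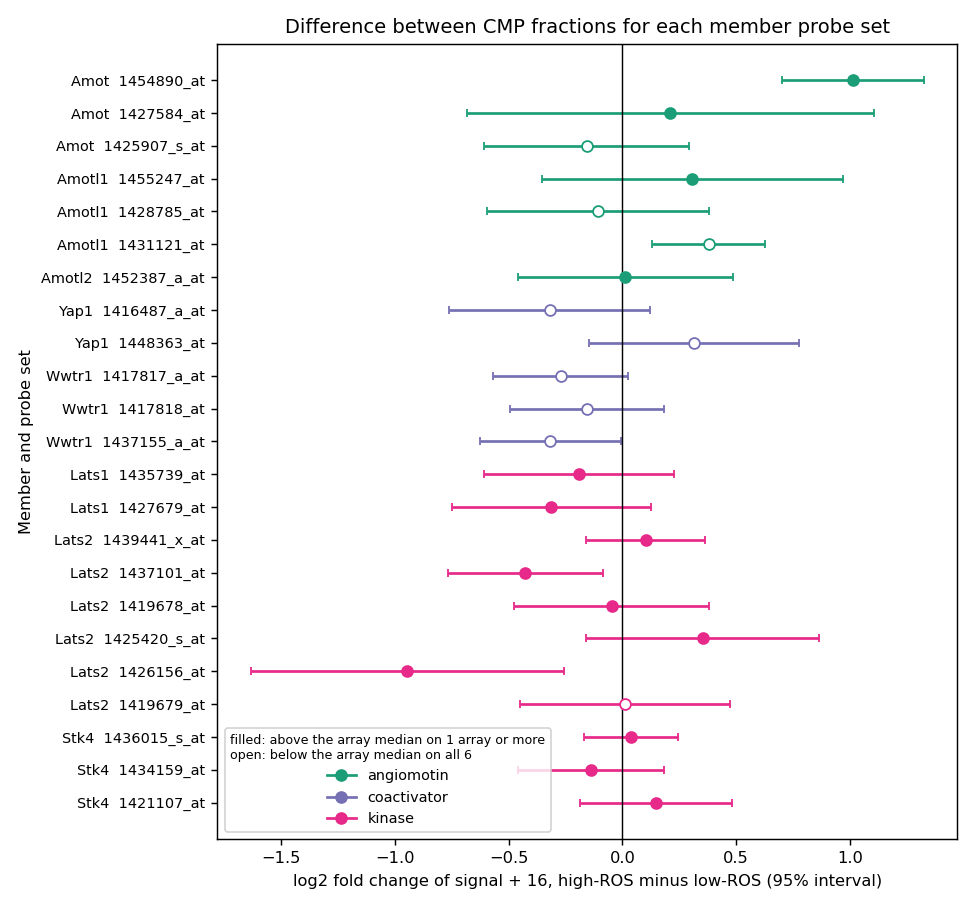
Log2 fold change of signal plus 16, high-ROS minus low-ROS (x axis), with its 95% interval from limma for each of the 23 probe sets, coloured by role; open points were below the array median on all 6 arrays. The brightest Amot probe set is at 1.01. Its interval lies above that of 1425907_s_at and overlaps the wide interval of 1427584_at. The 6 Lats2 probe sets range from -0.94 to 0.35.

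Taken over genes with 1 probe set each, 1 of the 8 measured members passed, Amot, for which the family was chosen, and 7 did not. Over all genes 0.0605% passed, 0.0165% with higher and 0.044% with lower high-ROS signal. When each probe set was its own test, 0 of the 23 passed and 5 had an unadjusted p under 0.05 (limma), where 0.02% of all probe sets passed and 7.31% had an unadjusted p under 0.05. On the probe sets that stood for the 8 genes, the groups did not overlap for 1 gene with higher and 1 with lower high-ROS signal, beside 8.06% and 5.32% of all genes. Over the 23 probe sets, the groups did not overlap on 2 with higher and 4 with lower high-ROS signal, beside 7.21% and 5.95% of all probe sets. Nothing is read from these counts, since the contrast chose the family. The median log2 fold change was 0.02 over the 8 genes and 0.02 over all genes.

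Genes that work with the members did not pass in either direction. Their counts at an unadjusted p under 0.05 stand beside 7.76% of all genes at that threshold (limma). Among partners and regulators of angiomotins 0 of 17 measured genes passed and 1 had an unadjusted p under 0.05 (limma), with 5 higher, 12 lower and a median log2 fold change of -0.12, against 0.02 over all genes. Nedd4, a ubiquitin ligase that acts on angiomotins, gave 781, 897 and 832 on the low-ROS arrays and 699, 747 and 474 on the high-ROS arrays, with a log2 fold change of -0.40 (SE 0.167) and an adjusted p of 0.617 (limma, over all genes). The groups did not overlap, and high-ROS replicate 3 was the lowest. For Lin7c, a junction scaffold of the Pals1 complex, the log2 fold change was -0.25 (SE 0.113; limma adjusted p = 0.641).

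Among adaptors and upstream regulators of the kinases 0 of 32 measured genes passed and 3 had an unadjusted p under 0.05 (limma), with 13 higher, 19 lower and a median of -0.03. Tnik, a kinase of the Ste20 group, gave 70.9, 67.8 and 56.8 on the low-ROS arrays and 24.1, 25.1 and 25.1, near background, on the high-ROS arrays. All low-ROS values were above all high-ROS values, with a log2 fold change of -0.99 (SE 0.198), for which limma gave an adjusted p of 0.200. Mob1a, the adaptor that the Lats kinases need for activity, gave 1689, 1433 and 1538 on the low-ROS arrays and 1316, 1165 and 619 on the high-ROS arrays, with a log2 fold change of -0.65 (SE 0.226) and an adjusted p of 0.575 (limma). Its groups did not overlap, and high-ROS replicate 3, with the highest Gapdh ratio, lay far below the others; the part of RNA quality in this was not tested.

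TEAD factors and their cofactors, through which Yap1 and Wwtr1 act on genes, were mostly dim: 5 of 8 measured genes were near background on all 6 arrays. None passed (0 of 8), with 4 higher, 4 lower, a median of -0.03 and 2 at an unadjusted p under 0.05 (limma). Vgll4, a TEAD cofactor that competes with Yap1, gave 137, 116 and 123 on the low-ROS arrays and 81.6, 82.4 and 86.1 on the high-ROS arrays. The groups did not overlap, with a log2 fold change of -0.51 (SE 0.189) and an adjusted p of 0.593 (limma). Vgll3 had a log2 fold change of 0.48 (SE 0.170; limma adjusted p = 0.575) between signals of 4.51 and 12.7, both near background. Tead2, the brightest TEAD gene, gave 77.7 ± 5.89 (SD, n = 3) and 63.8 ± 9.25.

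Of 20 target genes of Yap1 and Wwtr1, known mainly from adherent cells, 0 passed, 3 had an unadjusted p under 0.05 (limma), 10 were higher and 10 lower, with a median of 0.00. On all 6 arrays 10 of them were near background. Among these was Ccn1 (Cyr61), at 13.3 ± 3.01 (SD, n = 3) and 11.6 ± 3.75, a gene widely used as a readout of Yap1. Ccn2 (Ctgf), the other usual readout, gave 39.5 ± 25.9 and 35.2 ± 7.76. Crim1, a transmembrane protein that binds growth factors, gave 90.3, 110 and 149 on the low-ROS arrays and 49.0, 34.5 and 20.5 on the high-ROS arrays, with no overlap and a log2 fold change of -1.40 (SE 0.268) and an adjusted p of 0.172 (limma). Nuak2, a kinase related to AMPK, gave 256, 265 and 275 on the low-ROS arrays and 311, 404 and 342 on the high-ROS arrays, also with no overlap, and a log2 fold change of 0.38 (SE 0.155) and an adjusted p of 0.604 (limma). Crim1 and Nuak2 thus lay in opposite directions.

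**Figure D4:**
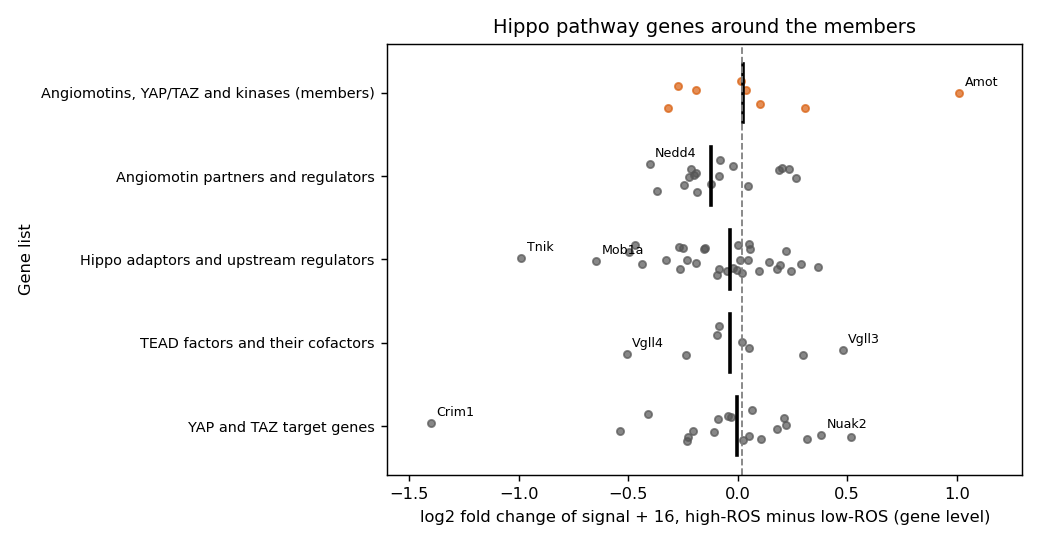
Log2 fold change of signal plus 16, high-ROS minus low-ROS (x axis), for the 8 measured members (orange) and for each gene of 4 pathway lists (grey), with 1 probe set per gene; black bars are list medians and the dashed line is the median of all genes, 0.02. The list medians lie between -0.12 and 0.02, and Amot, at 1.01, and Crim1, at -1.40, are the points farthest from 0.

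Markers of other cells were read beside Amot, whose product is known from endothelium. In a bulk sample, fewer cells of a type and less RNA per cell cannot be told apart. Of 10 endothelial markers 4 were higher and 6 lower on the high-ROS arrays, and 5 were near background on all arrays. Their summed signal was 280 to 357 on the low-ROS arrays and 259 to 289 on the high-ROS arrays, and the part of endothelial cells in the Amot difference was not tested. Cdh5, which defines endothelium, gave 16.5 ± 3.62 (SD, n = 3) on the low-ROS arrays and 27.4 ± 14.01 on the high-ROS arrays. Flt4 and Flt1, the brightest of the list, gave 69.4 ± 4.24 and 63.4 ± 13.7 on the low-ROS arrays and 63.9 ± 19.6 and 45.1 ± 8.99 on the high-ROS arrays. The groups did not overlap for 1 marker with higher and 2 with lower high-ROS signal, beside 8.06% and 5.32% of all genes. The higher one was Stab2, at 20.8 ± 6.95 and 31.7 ± 3.61. The lower ones were Kdr, at 19.8 ± 5.84 and 4.93 ± 5.60, and Emcn, at 23.9 ± 3.47 and 15.5 ± 1.74. Stab2, Kdr and Emcn were near background on all arrays. By log2 fold change, 8 of 10 stromal markers were higher and 2 lower, with summed signals of 467 to 1654 on the low-ROS arrays and 755 to 1078 in high-ROS arrays. Col1a1 led them with 49.1, 826 and 159 on the low-ROS arrays and 353, 441 and 209 on the high-ROS arrays, with overlapping groups. Its log2 fold change was 0.66 (SE 0.690), but its mean signal was 345 on the low-ROS and 334 on the high-ROS arrays. Col1a2 likewise had a log2 fold change of 0.26 (SE 0.648) with means of 119 and 87.9. For these genes the direction thus depends on the scale. The part of stromal cells in the Amot difference was not tested. Pdgfrb, the next brightest after Col1a1, gave 183 ± 63.4 and 157 ± 13.4. Pdgfra was the 1 stromal marker whose groups did not overlap, at 12.7 ± 4.71 and 25.3 ± 4.45, near background on all arrays. Over all genes 8.06% did not overlap with higher high-ROS signal.

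Markers of the blood lineages differed in their sums: those of granulocyte and monocyte markers were higher, and those of megakaryocyte and erythroid markers lower, on every high-ROS than on every low-ROS array. The part of these cells in the Amot difference was not tested. Of 9 measured granulocyte and monocyte markers 7 were higher and 2 lower, with summed signals of 40792 to 42824 on the low-ROS arrays and 43540 to 45422 in high-ROS arrays. S100a9 and S100a8, the brightest, had log2 fold changes of -0.01 on both. The groups did not overlap for 5 of the 9, each with higher signal on the high-ROS arrays, beside 8.06% of all genes. Their log2 fold changes were 0.81 (SE 0.151) for Ly86, 0.67 (SE 0.173) for Irf8, 0.49 (SE 0.136) for Csf1r, 0.31 (SE 0.103) for Ctsg and 0.16 (SE 0.0875) for Prtn3. Of 8 measured megakaryocyte markers 3 were higher and 5 lower, with summed signals of 1395 to 1426 and of 795 to 1088. Pf4 made up most of these sums and of their difference, at 1107 ± 41.6 on the low-ROS arrays and 666 ± 116 on the high-ROS arrays. Gp9 was the next brightest. The groups did not overlap for 3 of the 8, each with lower signal on the high-ROS arrays, beside 5.32% of all genes. Their log2 fold changes were -0.73 (SE 0.141) for Pf4, -0.74 (SE 0.224) for Itga2b and -0.34 (SE 0.168) for Gp6, which was near background. Of 8 measured erythroid markers 2 were higher and 6 lower, with sums of 12089 to 12294 and of 10258 to 11285, led by Slc4a1 and Ermap. Most of the difference in these sums lay in Slc4a1, at 6109 ± 48.4 on the low-ROS arrays and 4985 ± 554 on the high-ROS arrays. The groups did not overlap for 2 of the 8, both lower on the high-ROS arrays, beside the same 5.32%. These were Slc4a1, with a log2 fold change of -0.30 (SE 0.0878), and Epor, with -0.34 (SE 0.189). Of 8 measured lymphoid markers, led by Nkg7 and Cd79b, 3 were higher and 5 lower, with sums of 3073 to 3603 and of 2927 to 3373. None of the marker lists held a gene that passed (0 in limma). An unadjusted p under 0.05 was found for 1 endothelial, 1 stromal, 4 granulocyte and monocyte, 2 megakaryocyte, 1 erythroid and 0 lymphoid markers, and for 0 of the 5 measured gate surface genes, beside 7.76% of all genes. Of these gate genes 2 were higher and 3 lower.

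Over the 6 arrays, the genes whose pattern was most like that of Amot 1454890_at were Zfyve19, Chdh, Ghitm, Glt8d1 and Cacna1d. Their Pearson correlations with it were 0.997, 0.992, 0.992, 0.989 and 0.988 on the log2 scale, among 8156 other genes with a mean signal of at least 100. This is a description, since 2 groups of tight values are enough to give such a figure, and 32 genes had a correlation above 0.95. The sizes differed: the log2 fold change was 0.90 for Chdh, the mitochondrial choline dehydrogenase, 0.97 for Cacna1d, a subunit of a voltage-gated calcium channel, 0.54 for Zfyve19, 0.48 for Glt8d1 and 0.18 for Ghitm, a protein of the inner mitochondrial membrane. Zfyve19, the closest, gave 146, 149 and 145 on the low-ROS arrays and 217, 221 and 223 on the high-ROS arrays.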

How the data were processed

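RNA of sorted C57BL6 mouse CMP was turned into biotin-labelled cDNA with a NuGEN Ovation kit, per the labels' protocols. It was hybridised to 6 one-colour arrays, 3 low-ROS and 3 high-ROS. For each array the deposited table holds a linear intensity per probe set, and its summarisation and scaling by the authors are not given in the sources used here. Probe sets were named from the platform's annotation: 34945 of 45101 had 1 gene symbol, and 64 controls, 932 with several symbols and 9160 unlisted ones were left out. The probe set with the highest mean stood for a gene in the gene-level fit, and a second fit took every probe set with 1 symbol.

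High-ROS was compared with low-ROS with limma 3.58.1 (R 4.3.3; 2-sided, moderated by eBayes with trend) on log2(signal + 16), without further normalization, with Benjamini-Hochberg adjustment over all rows and a threshold of 0.05. The gene fit had 4 residual degrees of freedom. Fold changes of dim genes are shrunk by the pseudocount. An exact permutation test of 3 against 3 arrays cannot go below p = 0.1 and was not used. The number of arrays limits the precision. Steps were tested on simulated data.

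The members and gene lists were chosen with earlier results of these data known. Named were the members, in each pathway list the genes past the threshold and the 2 with the smallest p, the 2 brightest of each marker list and the 5 genes most like Amot. Tead2, Ccn1, Ccn2, Cdh5 and the gate genes were added after their values were seen. So were the non-overlapping genes of the marker lists that were not among the brightest. Listed genes without a single-symbol probe set are not analysed here. Alternatives were no trend, pseudocounts of 1 and 64, quantile normalization, genes above the median signal, averaging the probe sets of a gene, a replicate block and leaving out each array.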

Additional observations from a re-analysis of the deposited data

How the results depend on the processing

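The log2 fold change of Amot kept its sign in all 13 alternatives of the gene fit. It stayed past the threshold with a pseudocount of 1, with quantile normalization and with only genes above the median signal. It was not past it with no trend (1.01), a pseudocount of 64 (0.87), the replicate block (1.01, adjusted p = 0.121 with limma), the mean of its probe sets (0.36) or with any 1 array left out (0.99 to 1.04). Genes called over the whole table numbered 11, against 5 with no trend, 5 with a pseudocount of 64, 5 with the replicate block, 18 among genes above the median signal and 1 to 7 with 1 array left out. Probe sets called numbered 7, against 0 with no trend (2502 at an unadjusted p under 0.05, limma), 3 with the replicate block and 1 to 6 with 1 array left out. No gene of the 4 pathway lists was called in any of the 13 alternatives.

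Same-numbered arrays of both groups had deviations that correlated at 0.119, 0.0955 and 0.00232 over genes, and low-ROS replicate 3 correlated best with another number, so the numbers were not taken as pairs. Lats2 changed sign with the mean of its probe sets (-0.16). The medians of the target list and of the TEAD list changed sign in 6 and 3 alternatives and stayed between -0.11 and 0.05 and between -0.37 and 0.01. Signals near background limit what can be said of Yap1, Wwtr1 and Amotl1. The cause of the lost calls was not tested.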

Other observations

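A probe set whose annotation names both Xpo4 and Lats2 was left out of the comparison. It gave 257, 319 and 285 on the low-ROS arrays and 236, 372 and 223 on the high-ROS arrays, with overlapping groups.

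Of the 5 protein-coding genes on either side of Amot in the RefSeq order of the X chromosome, 5 were measured: Trpc5, Alg13, Htr2c, Il13ra2 and Lrch2. All but Alg13 were near background on all 6 arrays. Alg13, which acts in protein glycosylation, gave 217 ± 12.9 (SD, n = 3) on the low-ROS arrays and 252 ± 62.7 on the high-ROS arrays, with a log2 fold change of 0.17 (SE 0.198) and overlapping groups.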
